A study of Homo sapiens with 18 samples.

Results

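Expression in cisplatin-treated SKOV-3-AA cells (AA cells below) was set against expression in cisplatin-treated SKOV-3-DD cells (DD cells), the pair of groups that differ in which phosphorylation mutant of PEA-15 they carried while the drug was the same. The members were the 6 arrays whose titles name PEA-15AA or PEA-15DD together with cisplatin, 3 for each mutant, out of 18 arrays in the series, and 21448 probe sets were tested on them. SKOV-3 is a human ovarian carcinoma line. SKOV-3-AA cells were transiently transfected with a plasmid for PEA-15AA, in which both regulatory serines are replaced by alanine and cannot be phosphorylated. SKOV-3-DD cells received PEA-15DD, in which aspartate takes their place and mimics phosphorylation, and SKOV-3-EV cells (EV cells) received the empty vector. All of them were kept for 24 h after transfection and then given 15 µM cisplatin for 24 h, or medium alone in the 3 untreated groups, which also have 3 arrays each. Every group therefore holds a mixed, transiently transfected population of a line that keeps its own PEA15 gene, and no source used here says which share of the cells took up the plasmid or that the 3 arrays of a group came from separate cultures. P-values therefore measure only the spread between these arrays.

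PEA-15 is a small death effector domain protein that binds ERK1/2 and holds these kinases in the cytoplasm, away from the transcription factors they phosphorylate in the nucleus. Phosphorylation of its serines loosens the hold on ERK1/2 and favours binding to FADD, an adaptor of death receptors, so that the protein can act on proliferation in one state and on apoptosis in the other. Cisplatin crosslinks DNA, which blocks replication forks and RNA polymerases and starts the damage response.

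The values are log2 signals per probe set, so that a difference of 1 is a change of 2-fold. The median signal of the 6 arrays lay between 6.33 and 6.44 and the median of the negative control features between 3.70 and 3.90. The 95th percentile of these controls, above which a signal stands clear of background, lay between 6.80 and 7.62 over the 6 arrays. Of the keratin and other ovarian carcinoma markers 6 of 8 measured genes were above these controls. Of the leukocyte, endothelial and fibroblast markers 2 of 7, 0 of 5 and 1 of 6 were above them (CD68, PTPRC and COL1A2), and none of these 18 genes had an unadjusted p under 0.05 between AA and DD cells under cisplatin.

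The DD arrays were not alike. The root mean square distance from the group mean was between 0.178 and 0.186 on the log2 scale for the 3 AA arrays. It was 0.203, 0.305 and 0.311 for DD replicates 1, 2 and 3. The median standard deviation per probe set was 0.161 in AA cells and 0.245 in DD cells, the widest of the 6 groups. Because limma shared the spread over all groups, its p-values do not follow the wider spread of the DD arrays alone. Replicates 2 and 3 of DD cells stood apart from their mean on opposite sides for many genes of the cell cycle, and values without them stand beside the gene groups below. With both left out, DD cells are 1 array, which is taken to vary like the other groups.

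Under cisplatin few genes separated the mutants. At the study's thresholds, 2-fold or more with an unadjusted limma p under 0.05, 4 probe sets differed (0.0186% of those tested), 2 of them higher (0.00932%) and 2 lower (0.00932%) in AA cells. The higher ones were SASS6 and ABHD15, and the lower ones have no gene symbol here, with differences of -1.42 and -1.14. Just outside the 2-fold limit, CFDP1 was at -0.98. No probe set reached a Benjamini-Hochberg adjusted p under 0.05 in limma, the lowest adjusted p being 0.511, while 1497 (6.98%) had an unadjusted p under 0.05, of which 725 (3.38%) were higher and 772 (3.6%) lower. For 20742 probe sets, or 96.7%, the 95% interval of the difference lay within a 2-fold change in either direction, and the median half-width of these intervals was 0.375 on the log2 scale. The count of 4 grew to between 8 and 77 when single arrays were left out. The count at an adjusted p under 0.05 stayed at 0 except without DD replicate 3, when it was 58.

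The mutants did not differ in how far their arrays lay along the cisplatin response beyond the spread between arrays. Each array was placed on an axis that runs from 0 at the mean of untreated EV cells to 1 at the mean of cisplatin-treated EV cells, over all probe sets. The AA arrays lay at 0.947, 0.960 and 0.920. The DD arrays lay at 0.982, 1.042 and 0.816, on both sides of the AA arrays. The means were 0.943 ± 0.020 in AA and 0.947 ± 0.117 in DD cells (SD, n = 3 each), a difference of -0.004 (exact two-sided permutation test over 20 splits, p = 1, where 0.1 is the smallest p this design allows). The difference turned positive on another axis and when any of 3 arrays was left out. Of the variance among the 6 arrays 18% lay between the mutants (exact permutation test, p = 0.7).

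**Figure D1:**
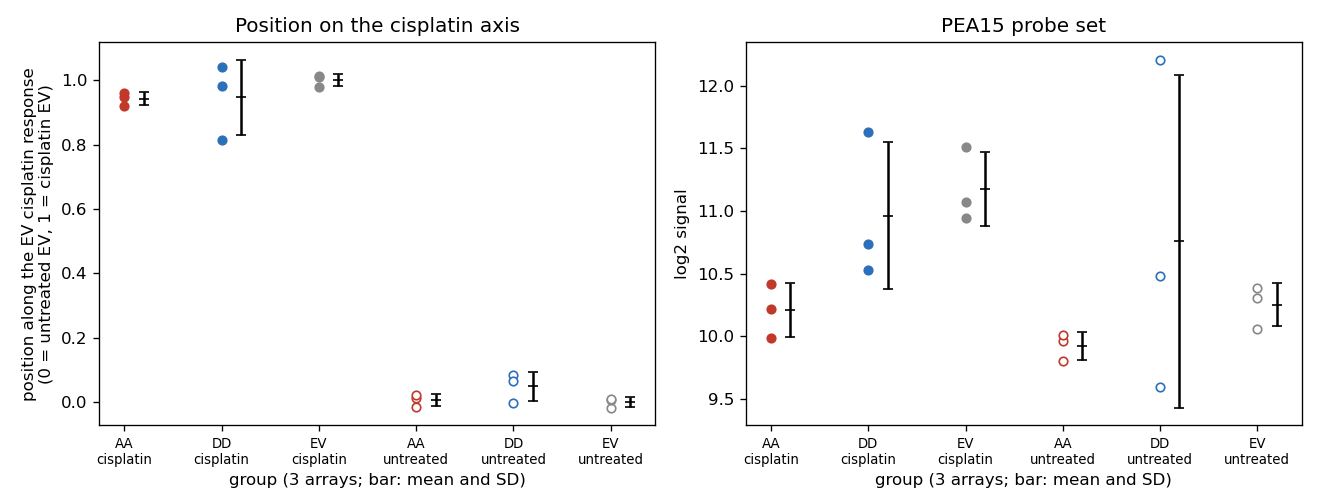
Left, the position of each array along the cisplatin response of EV cells, and right, the log2 signal of the PEA15 probe set, by group with 3 arrays each (filled, cisplatin; open, untreated; bars, mean and SD). AA arrays under cisplatin sit between 0.920 and 0.960 on the axis, inside the range of the DD arrays, while their PEA15 signals of 9.99 to 10.42 lie below all 3 DD signals.

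The PEA15 probe set itself did not show the transfections as a common rise. Under cisplatin PEA15 had log2 signals of 9.99, 10.22 and 10.42 in AA cells, 10.53, 10.73 and 11.63 in DD cells, and 10.95, 11.07 and 11.51 in EV cells. All 3 AA arrays lay below all DD and EV arrays. The AA minus DD difference was -0.75 (SE 0.43, adjusted p = 0.768). In untreated cells the signals were 9.96, 9.80 and 10.01 in AA and 9.59, 10.48 and 12.21 in DD cells, where 1 array lay far above the rest. Whether this probe set reads the plasmid's transcript is stated nowhere in the sources, so it is no check of the transfection.

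Of 13 measured genes for PEA-15, its partners and its kinases, 1 had an unadjusted p under 0.05, which was PRKCA, the gene of protein kinase C alpha, which can phosphorylate PEA-15. PRKCA had 5.98, 6.32 and 6.78 in AA and 6.73, 7.43 and 6.90 in DD cells, a difference of -0.66 (SE 0.22, adjusted p = 0.588) with overlap between the groups and a level that did not stand clear of the negative controls. MAPK3, the gene of ERK1, averaged 12.96 in AA and 12.99 in DD cells, and the 95% interval of the difference ran from -0.29 to 0.24. The death receptor side showed small positive differences: 16 of 18 genes of death receptors and caspases had a higher mean in AA cells, 0 had an unadjusted p under 0.05, and their median difference was 0.13. It was -0.03 without DD replicate 2, 0.30 without replicate 3 and 0.15 without both. The median over all probe sets was 0.01.

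Of 27 measured ERK-responsive genes 17 had a higher mean in AA cells, against 51.7% of all probe sets. At an unadjusted p under 0.05, 2 were higher and 0 lower (3.38% and 3.6% of all probe sets). The median difference was 0.04, against 0.01 over all probe sets. EGR1, an immediate early transcription factor, had 13.28, 13.43 and 13.87 in AA and 13.57, 13.09 and 13.49 in DD cells. Its difference of 0.15 had a 95% interval from -0.34 to 0.64. The 2 genes past the unadjusted threshold were ETV5, an ETS family transcription factor, at 0.39 (SE 0.16, adjusted p = 0.681), and the orphan nuclear receptor NR4A1 at 0.50 (SE 0.23, adjusted p = 0.701). NR4A1 had 12.32, 11.79 and 12.14 in AA cells and 11.91, 10.98 and 11.85 in DD cells, so that the groups overlapped and DD replicate 2 was the low array. FOS lay the other way, at -0.44, without passing the threshold.

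Of the 24 genes with the largest differences, 12 were higher in AA cells. They were taken among probe sets with 1 symbol, an unadjusted p under 0.05, no overlap between the 3 AA and 3 DD arrays and a group mean, on the higher side, over the median signal of all probe sets, conditions that 171 probe sets met upwards and 205 downwards. Arrays that do not overlap occurred for 9.4% of all probe sets. SASS6, which builds the cartwheel of the centriole, had log2 signals of 9.17, 9.04 and 9.32 in AA cells and 8.16, 7.40 and 8.87 in DD cells. The difference of 1.03 (SE 0.26) is a ratio of 2.05, with an unadjusted limma p of 0.000891 and an adjusted p of 0.520. In untreated cells all 6 SASS6 signals lay between 10.08 and 10.23. ABHD15, a hydrolase-fold protein, passed the study's thresholds too but at a level below the median signal. It had 6.14, 6.31 and 6.20 in AA and 5.52, 4.50 and 5.49 in DD cells, a difference of 1.05 (SE 0.25, adjusted p = 0.520).

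DNA2 and BOD1L1, a nuclease that resects DNA ends and a protein that protects stalled replication forks, were also among the 12. DNA2 had 7.51, 6.94 and 6.95 in AA and 6.31, 5.96 and 6.93 in DD cells, and BOD1L1 had 8.38, 8.36 and 8.22 in AA and 7.44, 7.21 and 8.14 in DD cells. Their differences were 0.73 (SE 0.22) and 0.72 (SE 0.20), with replicate 3 of DD cells close under the AA arrays in both. The other 9 were LRCH1, a leucine-rich repeat protein, at 0.80, the tyrosine kinase TNK1 at 0.77, the bromodomain protein BRD10 at 0.75, the RNA-binding protein RBPMS2 at 0.74, the protein phosphatase 1 regulator PPP1R16B at 0.74, the axonemal dynein regulator DRC10 at 0.73, the lysosomal cation channel TPCN2 at 0.70, the zinc finger gene ZNF222 at 0.69 and CDC42SE2, an effector of the GTPase CDC42, at 0.68. Replicate 2 was the lowest DD array in 8 of the 12 and replicate 3 the highest in 10. In untreated cells the sign of the difference was the same in 5 of the 12. The differences ran from 0.36 to 0.81 without replicate 2, where all 12 kept an unadjusted p under 0.05, from 0.44 to 1.40 without replicate 3, where 11 did, and from 0.28 to 1.02 without both, where 10 did. LRCH1, RBPMS2, DRC10, DNA2 and TPCN2, 5 of the 12, did not stand clear of the negative controls, and neither did ABHD15.

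The lowest 12 genes were led by CFDP1 and EGFR. CFDP1, a nuclear protein of chromatin, had 7.002, 6.55 and 7.13 in AA and 7.73, 7.53 and 8.36 in DD cells, a difference of -0.98 (SE 0.19, adjusted p = 0.511). EGFR, the receptor of epidermal growth factor whose signal runs through ERK1/2, had 7.29, 7.87 and 7.38 in AA and 7.92, 8.73 and 8.63 in DD cells. Its difference was -0.91 (SE 0.22, adjusted p = 0.520), a level 1.88 times as high in DD as in AA cells, with 1 AA array only just under the lowest DD array. EV cells had 8.45, 8.07 and 8.57, near the DD arrays.

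Before the drug EGFR ran the other way by a small amount. Untreated AA cells had 10.58, 10.88 and 10.51 and untreated DD cells 10.67, 10.52 and 10.23, which overlapped. Under cisplatin the level was lower by 3.14 on the log2 scale in AA cells and by 2.05 in DD cells, and the change of the AA minus DD difference was -1.10 (adjusted p = 0.985). Without DD replicates 2 and 3 together the difference under cisplatin was -0.41. Of the 10 measured EGF ligands and receptors 1 was higher and 2 were lower at an unadjusted p under 0.05, where 3.38% of all probe sets were higher and 3.6% lower. ERBB3, a receptor that pairs with ERBB2, differed by 0.54 and the ligand gene EPGN by -0.54, both at signals of the negative controls.

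TTC7B, a subunit of the kinase complex that makes phosphatidylinositol 4-phosphate at the plasma membrane, had the tightest AA arrays, at 7.92, 7.96 and 7.95, against 8.71, 9.16 and 8.45 in DD cells. The difference was -0.83 (SE 0.19). CASK, a membrane scaffold, followed at -0.82, the long noncoding RNA LINC02478 at -0.80, the mitochondrial cysteinyl-tRNA synthetase CARS2 at -0.75, CYFIP2 of the actin-regulating WAVE complex at -0.74, the endosomal exchange factor DENND1A at -0.73, QTMAN, which adds a sugar to a modified base of tRNA, at -0.72, the sperm-tail repeat gene STPG4 at -0.70, the receptor phosphatase PTPRG at -0.70 and the cyclic AMP-binding protein POPDC2 at -0.69. Of the 12, 10 had a higher mean in AA than in DD cells without the drug. Replicate 2 was the highest DD array in 10 of the 12. The differences ran from -1.15 to -0.30 without it, where 8 of the 12 kept an unadjusted p under 0.05, from -1.02 to -0.60 without replicate 3, where 12 did, and from -0.84 to -0.41 without both, where 6 did and EGFR and CASK did not. STPG4 and PTPRG did not stand clear of the negative controls.

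**Figure D2:**
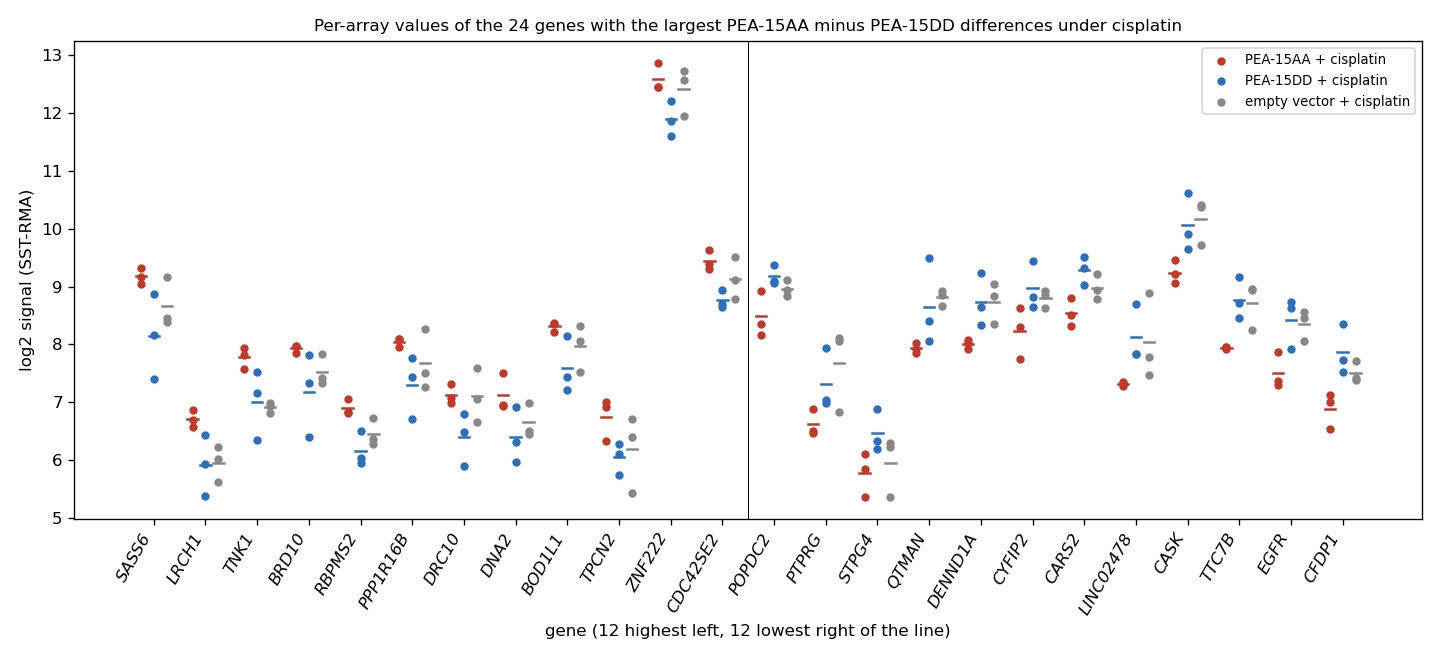
Log2 signals (vertical axis) of the 12 genes highest and the 12 lowest in AA against DD cells under cisplatin, with EV cells beside them (3 arrays a group; short lines, means). The 3 red AA points lie clear of the 3 blue DD points by the rule that chose the genes, and SASS6 on the left and CFDP1 on the right differ by 1.03 and -0.98.

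The EV arrays did not enter the AA minus DD differences, but entered the limma spread and the median signal behind the choice of genes. EV cells lay nearer the DD mean for 11 of the 12 lowest genes and for 6 of the 12 highest. Over all 17687 genes with a symbol they lay nearer the DD mean for 10237. For TTC7B they had 8.96, 8.95 and 8.26, and for CASK 10.42, 10.37 and 9.72, which put all 3 above every AA array. The 12 lowest were also long genes, with a median span of 166 kb in the RefSeq annotation, against 53.9 kb for the 12 highest and 25.9 kb for all genes with a symbol. In EV cells 9 of the 12 lowest and 7 of the 12 highest fell with cisplatin at an adjusted limma p under 0.05. At that threshold 4631 of all 17687 genes with a symbol fell and 4589 rose. Over the 3538 genes with the longest spans the median AA minus DD difference was -0.04 and 56.6% were lower in AA cells. Of the 3538 with the shortest spans 50.1% were lower. Of the genes between these, ranked by span in groups of 3537, 45.3%, 42.4% and 43.3% were lower, with medians of 0.02, 0.03 and 0.03. The share did not rise steadily with span, and the Spearman correlation of span with the difference was -0.04 over all genes with a symbol.

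The difference between the mutants with cisplatin was then compared with the difference without it. Untreated cells had 3 probe sets past the study's thresholds (0.014%), 856 at an unadjusted p under 0.05 (3.99%) and 0 at an adjusted p under 0.05 in limma. The test of the change itself, the difference under cisplatin minus the difference in untreated cells, gave 0 probe sets at an adjusted p under 0.05, with 0.985 the lowest, and 1009 at an unadjusted p under 0.05 (4.7%). Across all probe sets the differences with and without the drug had a correlation of 0.06, given as a description over 21448 probe sets of the same arrays. Among the genes chosen for their difference under cisplatin the unadjusted p of the change was under 0.05 for 7 of the 12 highest and 10 of the 12 lowest, and nothing is read from these counts because the choice used the same arrays.

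**Figure D3:**
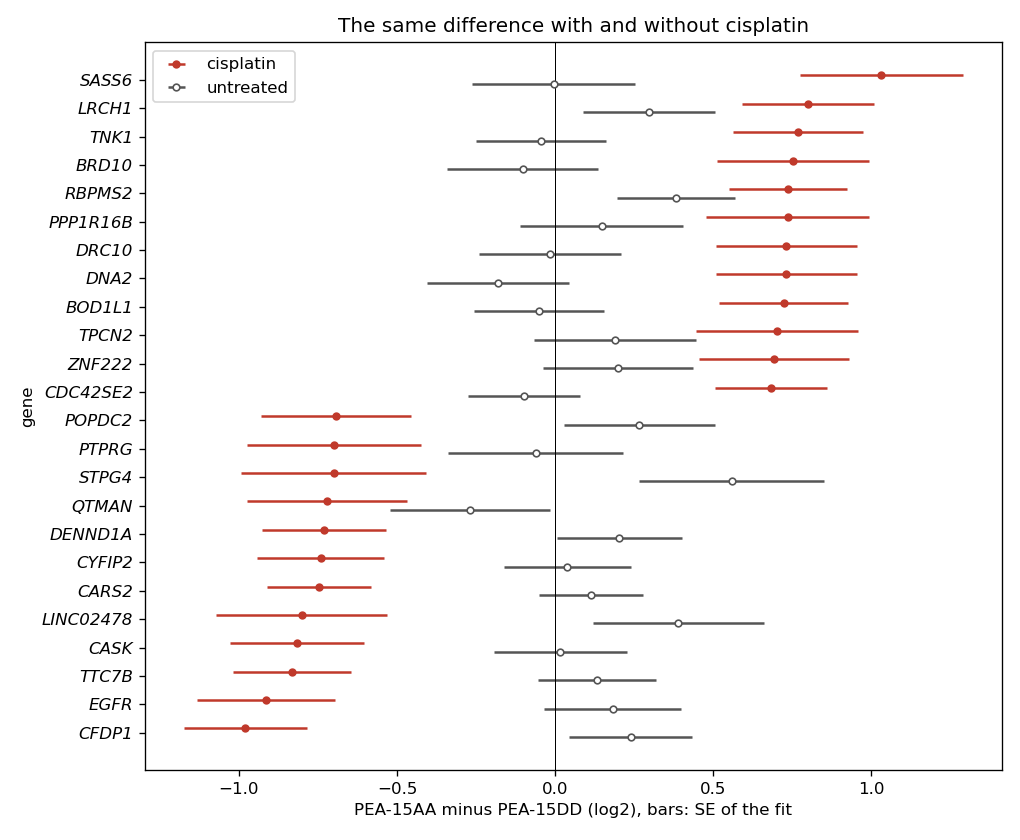
AA minus DD difference (horizontal axis, log2) of the same 24 genes under cisplatin (filled) and in untreated cells (open), with the standard error of the fit. The untreated differences sit around 0, with STPG4 at 0.56 and LINC02478 at 0.39 the farthest, while the cisplatin differences were chosen to be large.

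Of 26 lists of genes that were drawn up by function, the replication-dependent histones stood out by their counts. These genes form clusters, are copied into RNA in S phase to package new DNA, and end in a stem-loop in place of a poly(A) tail. Of 50 measured members 44 had a higher mean in AA than in DD cells under cisplatin, against 51.7% of all probe sets. At an unadjusted limma p under 0.05, 17 were higher and 0 lower, that is 34% of the list against 3.38% of all probe sets. Arrays did not overlap for 14 members, all upwards, against 4.66% of all probe sets upwards. The median difference was 0.23, where that of all probe sets was 0.01. No member reached an adjusted p under 0.05. Members of the same histone family can be near-identical copies, so probes may read more than 1 of them and their counts are not independent. In bulk RNA fewer cells in S phase and less histone RNA per cell cannot be told apart.

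H2AC21, which encodes a histone H2A, had the lowest p of the list. It had 10.92, 11.005 and 11.05 in AA cells and 10.42, 10.52 and 10.49 in DD cells. The difference was 0.51 (SE 0.14, adjusted p = 0.529), and here all 3 DD arrays were close together. H4C1, an H4 gene, had 9.15, 9.12 and 9.17 in AA cells and 8.59, 8.45 and 9.08 in DD cells, a difference of 0.44 (SE 0.15). H3C11, an H3 gene, had 13.49, 13.35 and 13.51 in AA cells and 13.20, 12.30 and 13.15 in DD cells, a difference of 0.56 (SE 0.19). Both groups were apart in all 3 genes, but DD replicate 2 was the low array in H4C1 and H3C11. The linker histone genes were spread, with 0.61 for H1-3, 0.50 for H1-4, 0.48 for H1-5, 0.17 for H1-2 and -0.23 for H1-1, and the lowest member was H2BC21, of the H2B genes, at -0.27.

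The 3 histone genes with the lowest p among those with a promoter entry in RefSeq (build GRCh38.p14) are shown with the 150 bases before the annotated start, since members of the list moved together. Capitals mark the TATA box (TATAAA) and the CCAAT box (CCAAT) on either strand. H2AC21 lies at chr1:149887966-149888115, H2AC14 at chr6:27814778-27814927 and H2BC13 at chr6:27807930-27808079, all on the minus strand.
H2AC21: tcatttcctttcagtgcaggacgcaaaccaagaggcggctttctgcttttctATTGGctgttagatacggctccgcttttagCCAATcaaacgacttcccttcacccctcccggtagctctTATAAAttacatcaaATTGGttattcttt
H2AC14: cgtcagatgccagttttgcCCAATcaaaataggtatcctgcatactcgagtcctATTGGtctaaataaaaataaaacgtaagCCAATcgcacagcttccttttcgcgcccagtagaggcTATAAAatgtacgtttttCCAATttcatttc
H2BC13: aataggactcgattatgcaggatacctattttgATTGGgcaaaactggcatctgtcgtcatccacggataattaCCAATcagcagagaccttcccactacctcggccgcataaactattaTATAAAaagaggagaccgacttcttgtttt

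In all 3 promoters a TATA box stands near the start, with at least 2 CCAAT boxes before it. Within 250 bases before the start, 71.7% of the 46 histone promoters found held TATAAA and 87.0% held CCAAT, against 11.1% and 33.0% of 27305 RefSeq promoters. Both sets took the first promoter entry of each symbol and left out chr8. The matches describe the letters and are no evidence of binding.

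The EV cells give another reference for the histone genes, though the AA and DD arrays are the ones on which the list stood out. The differences from EV cells are thus no independent support. Relative to the mean of cisplatin-treated EV cells, the median histone gene lay at 0.24, 0.34 and 0.32 in the AA arrays and at 0.07, -0.18 and 0.21 in the DD arrays. All 3 AA arrays were above all 3 DD arrays, and the EV arrays lay at -0.15, -0.06 and 0.23. Against EV cells 47 of 50 members were higher in AA cells, 17 of them at an unadjusted p under 0.05, where 6.55% of all probe sets were higher at that threshold. In DD cells 31 of 50 were higher, with 2 at that threshold, where 3.49% of all probe sets were. Both comparisons share the EV arrays. Cisplatin lowered the list in EV cells, where 44 of 50 members fell at an adjusted limma p under 0.05 and 1 rose. Of all 17687 genes with a symbol, 4631 fell and 4589 rose at that threshold. In untreated cells 34 of 50 had a higher mean in AA than in DD cells, with a median difference of 0.07 and 1 member higher at an unadjusted p under 0.05, where 1.69% of all probe sets were.

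The number of histone genes past the unadjusted threshold depended on 1 array. It was 2 of 50 (4%) without DD replicate 2, where 3.17% of all probe sets were higher at that threshold. There 38 members were still higher and the list's median was 0.14. The count was 22 (44%) without DD replicate 3, where 9.37% of all probe sets were higher and the list's median was 0.29. The count lay between 9 and 16 without any other array of either group, where 2.79% to 3.78% of all probe sets were higher. Without DD replicates 2 and 3 together, which leaves DD cells with 1 array, the list's median was 0.19.

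**Figure D4:**
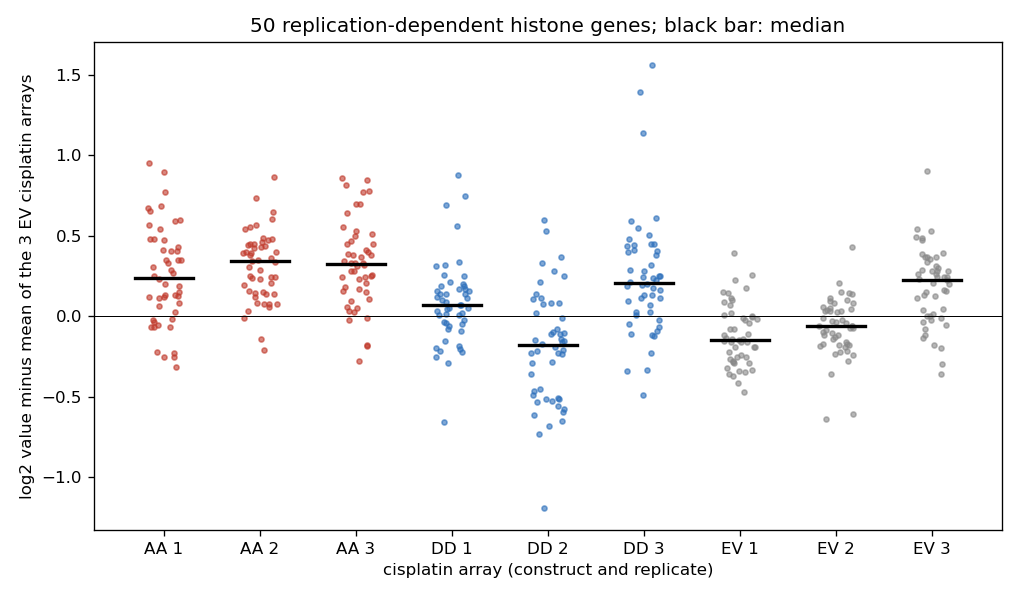
Log2 signal of 50 replication-dependent histone genes in each cisplatin-treated array, as the difference from the mean of the 3 EV arrays (vertical axis; black bars, medians). The medians of the AA arrays are 0.24 to 0.34, above those of the DD arrays, of which replicate 2 is the lowest at -0.18.

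Other genes of proliferation leaned the same way with fewer calls. Of 31 genes of the G1/S transition 25 were higher in AA cells, 5 of them at an unadjusted p under 0.05 and 0 lower at that threshold, against 3.38% and 3.6% of all probe sets, with a median difference of 0.11. The 5 became 1 without AA replicate 1, 0 without AA replicate 2, 0 without DD replicate 2 and 10 without DD replicate 3. Of all probe sets 2.79%, 2.89%, 3.17% and 9.37% were higher at that threshold in the same order. E2F2, a transcription factor of S phase entry, had 7.49, 8.02 and 7.80 in AA and 7.71, 5.72 and 7.16 in DD cells, so that its difference of 0.90 (SE 0.33) came mostly from 1 low array. MCM2, a subunit of the replicative helicase, had 12.09, 12.11 and 11.98 in AA and 11.81, 11.76 and 11.82 in DD cells, with no overlap and a difference of 0.27 (SE 0.12, adjusted p = 0.694). The others past the threshold were the primase gene PRIM1 at 0.57, the replication licensing gene CDC6 at 0.37 and cyclin gene CCNE2 at 0.34, while MCM6, of the same helicase as MCM2, lay at -0.34.

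Of 33 genes of G2 and mitosis 27 were higher in AA cells, with 1 at an unadjusted p under 0.05, the spindle gene DLGAP5 at 0.38, and a median of 0.18. Of 24 genes of the Fanconi and homologous recombination pathways, which repair interstrand crosslinks, 19 were higher with a median of 0.12. FANCF and FANCG, of the Fanconi core complex, were higher by 0.53 and 0.50 at an unadjusted p under 0.05, and RAD51B was lower at -0.46. These medians depended on which DD arrays were kept. Without replicate 2 they were 0.05 for G1/S, 0.02 for G2 and mitosis and -0.01 for the Fanconi genes, and without replicate 3 they were 0.23, 0.27 and 0.29. Without both, G1/S genes were at 0.06, G2 and mitosis genes at 0.11 and Fanconi genes at 0.21, with 18 of these 24 higher.

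Replicate 2 was the lowest of the 6 arrays for 67.7% of the G1/S genes, 72.7% of the G2 and mitosis genes and 66% of the histone genes, where it was the lowest for 27.9% of all probe sets. Replicate 3 was the highest of the 6 for 51.5% of the G2 and mitosis genes and 24% of the histone genes, against 24.6% of all probe sets. The median difference between DD replicates 3 and 2 was 0.41 for the histone genes and 0.49 for the G1/S genes. It was 0.48 for the G2 and mitosis genes and 0.73 for the Fanconi genes. In each of these lists this gap inside the DD group was wider than the median difference between the mutants, which was 0.23, 0.11, 0.18 and 0.12 in the same order.

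**Figure D5:**
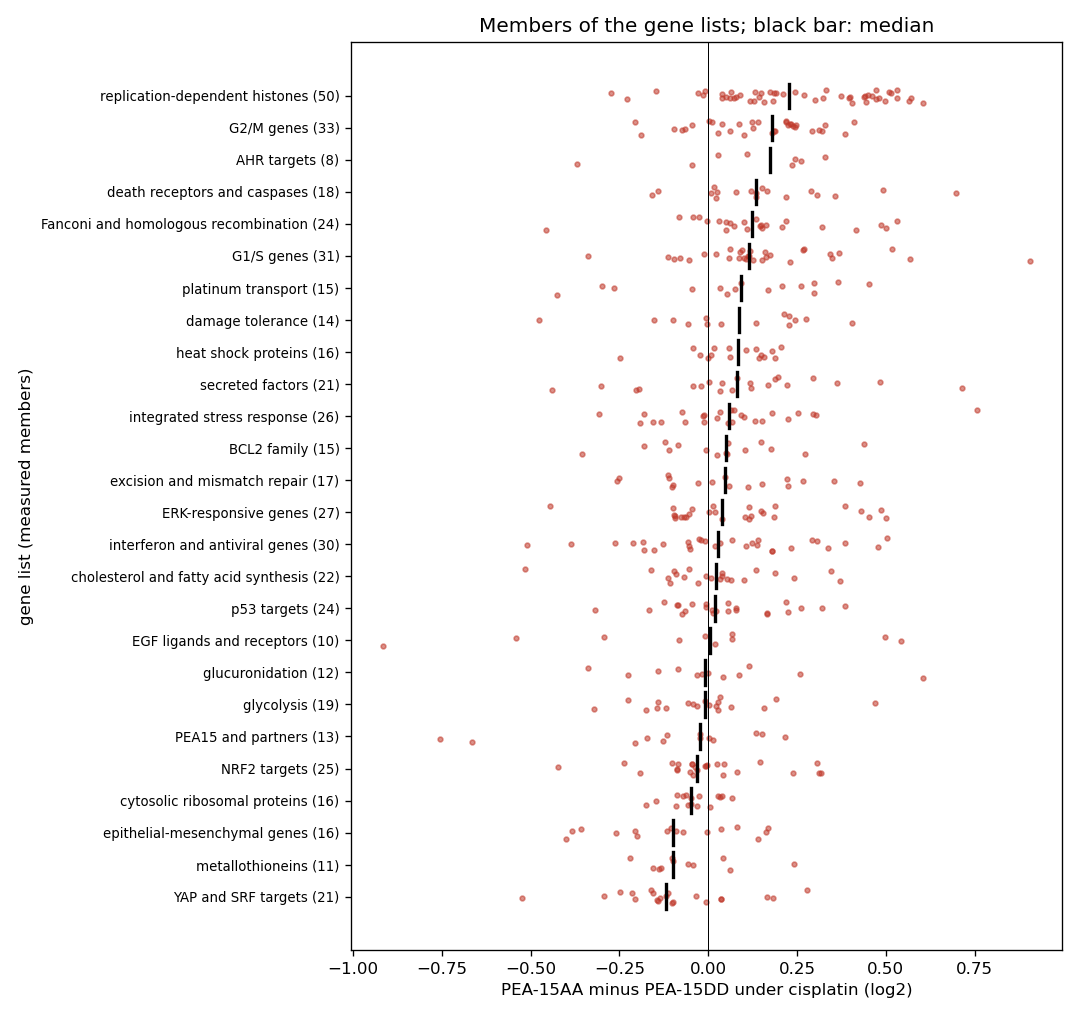
AA minus DD difference under cisplatin (horizontal axis, log2) of every measured member of 26 gene lists, ordered by the median (black bar), with the number of members in brackets. The histone list lies highest at a median of 0.23 and the YAP and SRF targets lowest at -0.12.

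The lists that leaned the other way held genes of adhesion, the actin cytoskeleton and metal binding. Of 21 targets of YAP and SRF, which answer to cell tension, 16 were lower in AA cells and 1 was lower at an unadjusted p under 0.05. This was TEAD1, the DNA-binding partner of YAP, with 7.90, 8.29 and 8.45 in AA and 8.39, 9.19 and 8.63 in DD cells, a difference of -0.52 (SE 0.22) with overlap. The list's median was -0.03 without DD replicate 2, where 12 of 21 were lower and 0 were called, -0.22 without replicate 3 and -0.18 without both. Of 16 epithelial-mesenchymal genes 11 were lower and 0 were called, with CDH2, the gene of N-cadherin, at -0.40. Of 11 metallothionein genes, whose products bind platinum and zinc, 8 were lower with a median of -0.10 and 0 were called, and that median was 0.03 without DD replicate 2, -0.21 without replicate 3 and -0.08 without both.

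NRF2 drives genes of antioxidant defence, and glucuronidation makes drugs and hormones soluble for export. Of 25 measured NRF2 targets 16 were lower in AA cells, 0 had an unadjusted p under 0.05, and the 95% interval of all 25 lay within a 2-fold change. NFE2L2, which encodes NRF2, had 12.72, 12.67 and 12.67 in AA and 12.45, 11.84 and 12.69 in DD cells. The groups overlapped, and the difference was 0.36 (SE 0.16, adjusted p = 0.693). Of 24 listed genes of glucuronidation 12 were measured, of which 6 were higher and 6 lower, and all 12 intervals lay within 2-fold. Of the 12, 5 stood clear of the negative controls, and the intervals of the others describe background signals. UGT2B17, which conjugates steroids, was called at 0.61 (SE 0.18), with 4.58, 4.09 and 4.36 in AA and 3.63, 3.66 and 3.92 in DD cells, signals under the 95th percentile of the negative controls.

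Among genes of drug handling and apoptosis, calls are to be read against 3.38% higher and 3.6% lower over all probe sets. Of 15 genes of platinum transport 0 were higher and 1 was lower at an unadjusted p under 0.05, ATOX1, a copper chaperone that can carry platinum. It had 10.41, 10.46 and 10.33 in AA and 10.58, 11.15 and 10.77 in DD cells, a difference of -0.43 (SE 0.18) with no overlap. Of 15 BCL2 family genes 1 was higher, BCL2L1, which encodes the survival protein BCL-xL, at 0.44 (SE 0.17), with 10.10, 10.36 and 10.40 in AA and 9.94, 9.38 and 10.22 in DD cells, which overlapped. Of 24 p53 targets 2 were higher and 0 lower, and without DD replicate 2 the p53 and BCL2 lists had 0 higher. These were PPM1D, a phosphatase that ends the damage response, at 0.38, and cyclin gene CCNG1 at 0.32, of which CCNG1 had 11.63, 11.70 and 11.51 in AA and 11.40, 11.19 and 11.29 in DD cells with no overlap.

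Repair outside the Fanconi pathway and damage tolerance followed no common direction. PMS2, of mismatch repair, was higher by 0.43 (SE 0.17), with 9.78, 9.85 and 9.46 in AA and 9.07, 9.31 and 9.43 in DD cells. USP1, the enzyme that removes ubiquitin from PCNA and FANCD2, was higher by 0.40 and PRIMPOL, which restarts synthesis past lesions, lower at -0.48. Of 17 genes of excision and mismatch repair 1 was higher and 0 lower at an unadjusted p under 0.05, and of 14 of damage tolerance 1 was higher and 1 lower. Of 26 genes of the integrated stress response 1 was higher, the lipoprotein receptor gene VLDLR at 0.76, and 1 lower, the secreted stanniocalcin gene STC2 at -0.31. RAD51B, PRIMPOL and VLDLR did not stand clear of the negative controls.

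The aryl hydrocarbon receptor, a sensor of aromatic compounds, had 8 measured list members, of which 6 were higher in AA cells with a median of 0.17. It was 0.01 without DD replicate 2, 0.31 without replicate 3 and 0.14 without both. ARNT, the partner with which the receptor binds DNA, was called at 0.33. Among 21 secreted factors 0 were higher and 1 was lower at an unadjusted p under 0.05, the matrix protease gene MMP10 at -0.44. Metabolic genes gave 3 calls, with ACACA, of fatty acid synthesis, at -0.52, the glucose transporter gene SLC2A3 at 0.47 and the phosphofructokinase gene PFKL at -0.32. None of 16 heat shock and 16 cytosolic ribosomal protein genes was called. Among other genes the study names, TIPARP lay at 0.03, NAV3 at 0.30, GPRC5C at 0.39, PRKG1 at -0.10 and MAVS at -0.13, and none of these 5 passed the unadjusted threshold. MMP10, SLC2A3, NAV3, GPRC5C and PRKG1 did not stand clear of the negative controls.

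The median signal of 30 interferon and antiviral genes was 6.56, 6.48 and 6.77 in AA arrays and 6.32, 5.98 and 7.54 in DD arrays, with replicate 3 high. IFIH1, a sensor of double-stranded RNA picked after its values were seen, had 6.49, 5.88 and 6.69 in AA and 5.00, 5.09 and 7.53 in DD cells. Of the 30 genes 12 stood clear of the negative controls, and IFIH1 did not. At an unadjusted p under 0.05 the list had 0 higher genes and 1 lower with all arrays, and 9 higher and 2 lower without replicate 3, when 9.37% of all probe sets were higher at that threshold.

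Without DD replicate 3, 58 probe sets differed between the mutants at an adjusted limma p under 0.05, 43 higher and 15 lower in AA cells, of which 47 had a symbol. The left-out array was nearer the AA mean than the mean of the other DD arrays for 54 of the 58. Nothing is read from this count, because leaving that array out is what chose these probe sets. The share over all probe sets was not taken. They included SASS6, LRCH1, TNK1, BRD10 and BOD1L1 of the 12 highest genes and CARS2 and TTC7B of the 12 lowest. With all arrays 39 of the 58 had an unadjusted p under 0.05. Named after their values were seen were ARID1A, a subunit of the SWI/SNF chromatin remodeller, and MAP3K5, a stress kinase upstream of JNK and p38. ARID1A was at 0.85 without the array and 0.65 with it, and MAP3K5 at 1.00 and 0.48. MAP3K5 did not stand clear of the negative controls.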

How the data were processed

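RNA of transiently transfected SKOV-3 cells was hybridised to Clariom S arrays, 18 in 6 groups of 3. The authors summarised them with SST-RMA in the Transcriptome Analysis Console 4.1, and the log2 values they deposited, 1 per probe set and array, were used as they stand. Such normalization pulls arrays to 1 distribution, so a shift of all genes cannot be seen, and the number of arrays limits the precision.

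The 21448 probe sets left after 2903 control features were fitted with limma 3.58.1 in R 4.3.3, the 6 groups each having their own mean. P-values are two-sided and were adjusted by Benjamini-Hochberg over all 21448. A symbol was available for 17709 probe sets. The thresholds of the study (2-fold, unadjusted p under 0.05) were kept beside the adjusted p. The axis position is the slope of an array's deviation from untreated SKOV-3-EV cells on the mean SKOV-3-EV response. The fit was tested on simulated data. Replicate numbers are shared by all groups, and no label says what a number marks. Same-numbered AA and DD arrays deviated from their group means with correlations of 0.161, 0.103 and 0.102 in untreated cells, which was taken as pairing there, and of -0.021 to 0.066 under cisplatin, which was not. Over all pairs of groups these correlations ran from -0.053 to 0.178. Except where the replicate block is named, all values, also those of untreated cells, come from the fit without pairing. The members and gene lists were chosen with earlier results of these data known.

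Named genes are the 12 highest and 12 lowest (1 symbol, unadjusted p under 0.05, no overlap, mean in the higher group above the median of all probe sets), any at an adjusted p under 0.05, PEA15, MAPK3 and genes the study names, and the 3 lowest p of each list. Genes outside this rule were chosen after their values were seen: ABHD15, FOS, MCM6, list members past the unadjusted threshold, CDH2, the linker histones, H2BC21 and those marked in the text. Alternatives covered normalization, signal filters, fit options, array weights, Tukey biweight averages, 1 probe set per symbol, the replicate block and left-out arrays.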

Additional observations from a re-analysis of the deposited data

How the results depend on the processing

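The count of 4 probe sets past the study's thresholds under cisplatin was 7 after quantile normalization, 2 among probe sets with a mean above the median, 12 with array weights, 2 with 1 probe set per symbol, 16 with Tukey biweight averages, 49 without SKOV-3-DD replicates 2 and 3 together (1 array left, assumed to vary like the other groups), and 0 when an adjusted p was asked for as well. Leaving out 1 array gave 8 to 77, with 77 without SKOV-3-DD replicate 3 and 24 without replicate 1. The count at an adjusted p under 0.05 was 0 to 58 over the left-out arrays, and 0 under every other alternative run. The 3 probe sets in untreated cells became 5 with array weights, 0 with 1 probe set per symbol, 10 with Tukey biweight averages and 1 to 38 with 1 array left out. The test of the change with cisplatin gave 0 under all alternatives run, and it could not be fitted on arrays of 1 treatment alone.

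The difference in axis position of -0.004 became 0.00768 on an axis from the SKOV-3-AA and SKOV-3-DD responses and 0.014 as a correlation. It ran from -0.069 to 0.044 with 1 array left out, and was positive without SKOV-3-AA replicate 3 (0.0070), SKOV-3-DD replicate 1 (0.014) and SKOV-3-DD replicate 2 (0.044). The cause was not tested.

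With the replicate number as a block, 4 probe sets passed the study's thresholds under cisplatin and 3 in untreated cells, and 0 reached an adjusted p under 0.05 under cisplatin or for the change, as without it. Of the genes named or listed, PEA15, NR4A2 and DCN passed an unadjusted p under 0.05 under cisplatin with the block only, and no other call changed. With the limma fit limited to the 6 arrays compared, 21 of the named probe sets lost an unadjusted p under 0.05, 3 gained it and 99 were unchanged.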
